A study of Mus musculus with 14 samples.

Results

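The integrated stress response (ISR) genes described here are 36 of the 23337 genes in the count data of bulk RNA sequencing from mouse brain. They were taken by name, with earlier results of these data known. The first 21 are listed as targets of the transcription factors ATF4 and CHOP, and include Atf4 and Ddit3, the genes of these factors. The other 15 are genes of the eIF2 machinery, that is the eIF2 subunits, the kinases that phosphorylate eIF2, the exchange factor eIF2B and the phosphatase subunits. All 36 were present in the data, and all 36 had enough reads to be tested in every comparison. Total RNA came from microdissected striatum and cerebellum of 6-month-old C57Bl/6 mice that were either Thap1 conditional knockouts (cKO) or their wild-type (WT) littermates. There were 3 WT and 3 cKO libraries from the striatum and 4 WT and 4 cKO libraries from the cerebellum. Neither the Cre line, the cells in which it acts nor the Thap1 exons it removes can be read from the sources used here.

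When eIF2 is phosphorylated on its alpha subunit, eIF2B can no longer recharge it with GTP, general translation slows, and a few mRNAs with upstream reading frames, among them the Atf4 mRNA, are translated more. Each of the 4 eIF2 kinases answers another stress: PERK (Eif2ak3) unfolded protein in the endoplasmic reticulum, GCN2 (Eif2ak4) amino acid shortage, PKR (Eif2ak2) double-stranded RNA, and HRI (Eif2ak1) haem shortage and signals from stressed mitochondria. ATF4 then switches on genes for amino acid import and synthesis, one-carbon metabolism and redox defence, and CHOP (Ddit3) and the phosphatase subunit GADD34 (Ppp1r15a) follow. The switch itself lies in phosphorylation and translation, and RNA counts see neither step. Impaired eIF2 alpha signalling has been linked to inherited dystonias, and THAP1, the transcription factor deleted here, is the DYT6 dystonia gene.

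Levels are read counts scaled to library size (CPM), given as mean ± SD over the libraries of a group. Library totals ran from 12595941 to 14258141 counts in the striatum and from 19458954 to 28099205 in the cerebellum. Thap1 itself had 15.2 ± 1.19 CPM in WT and 5.92 ± 2.08 CPM in cKO striatum (n = 3 each), a difference of -1.36 on the log2 scale (SE 0.231 and adjusted p = 0.0562 by edgeR), and 8.92 ± 1.201 CPM in WT and 6.98 ± 0.364 CPM in cKO cerebellum (n = 4 each; -0.34, SE 0.10 and adjusted p = 0.0488 by edgeR). Sex, read from Xist and Y-linked counts, was balanced, with 1 male in each striatal group and 2 males in each cerebellar group. The male WT striatal library, replicate 1, stood apart from the other WT striatal libraries, with chi-square values per degree of freedom of 27.2 and 26.9 against 6.52 between the other pair. Differences were tested with edgeR's quasi-likelihood test and Benjamini-Hochberg adjustment over all genes tested, a gene being called when its adjusted p was below 0.05. That replicates are separate animals is not said in the labels, and the p-values then reflect only how these libraries scatter. In bulk tissue, fewer cells of a type and less RNA per cell cannot be told apart.

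In the cerebellum 4 of the 36 genes were called, and all 4 were higher in cKO: the targets Asns, Slc7a11 and Nupr1 and the kinase gene Eif2ak1. These calls come from a fit to the cerebellar libraries alone. In 1 model of all 14 libraries none of the 4 passed, with fold changes of similar size (Asns 0.17 and adjusted p = 0.171, Slc7a11 0.39 and 0.204, Nupr1 0.50 and 0.142, Eif2ak1 0.13 and 0.241). The targets thus had 3 of 21 called higher and 0 called lower, and the machinery 1 of 15 called higher and 0 called lower. Over all 14775 genes tested in the cerebellum, 7.59% were called, 2.63% higher and 4.96% lower. The median log2 fold change was 0.13 over the 21 targets, 0.0313 over the 15 machinery genes and 0.00437 over all genes tested. Of the targets, 17 had a positive fold change, and 8 had an unadjusted p below 0.05, each of them with a positive fold change. Of the machinery genes, 10 had a positive fold change and 3 had an unadjusted p below 0.05, again each with a positive fold change. Over all genes tested, 51.6% had a positive fold change and 22.5% had an unadjusted p below 0.05 in either direction. The difference between targets and machinery was not tested, because genes of a pathway are not replicates.

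Asns, asparagine synthetase and a textbook ATF4 target, lies on chromosome 6 from 7675169 to 7693254 on the minus strand (mm10, GENCODE vM21). Its level was 100.05, 97.3, 105.7 and 104.8 CPM in the WT and 108.7, 116.6, 112.5 and 120.3 CPM in the cKO cerebellum. Every cKO library was above every WT library. The mean rose from 101.9 ± 3.99 to 114.5 ± 5.02 CPM (n = 4 each), or by 0.18 on the log2 scale (SE 0.0389 and adjusted p = 0.00858 by edgeR's quasi-likelihood test on the cerebellar libraries, 0.171 in the model of all libraries).

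Slc7a11, the cystine-glutamate exchanger xCT, which brings in cystine for glutathione synthesis, lies on chromosome 3 from 49892526 to 50443614 on the minus strand. The WT cerebella had 45.7, 39.4, 38.0 and 35.9 CPM and the cKO cerebella 54.4, 50.5, 51.9 and 51.3 CPM. Again the 2 groups did not overlap. The mean rose from 39.7 ± 4.22 to 52.0 ± 1.68 CPM (n = 4 each), or by 0.40 on the log2 scale (SE 0.0622 and adjusted p = 0.000933 by the edgeR test on the cerebellar libraries, 0.204 in the model of all libraries), to 132% of WT.

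Nupr1, a small stress-induced chromatin protein, lies on chromosome 7 from 126623249 to 126630861 on the minus strand. It was a rare transcript, with 94 to 222 counts per cerebellar library. Its WT levels were 5.07, 4.62, 5.003 and 5.26 CPM and its cKO levels 6.91, 6.68, 7.05 and 7.53 CPM, with no overlap. The mean rose from 4.99 ± 0.269 to 7.04 ± 0.361 CPM (n = 4 each), the largest log2 fold change of the 36 genes in the cerebellum at 0.51 (SE 0.0931, adjusted p = 0.00268 by the edgeR test on the cerebellar libraries, 0.142 in the model of all libraries).

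The C/EBP-ATF response element through which ATF4 and CHOP bind DNA, searched as TGATGNAA on both strands in the 250 bases before the RefSeq start (build GRCm38.p6), was present in 4 of the 18 targets that have a window in that table: Chac1, Asns, Slc7a11 and Nupr1. The same letters were in 1 of 13 machinery windows (Eif2s3x) and in 3.91% of the 27025 windows of all genes. The 3 called targets are thus among the 4 with a match, which is a description of these letters and no sign of binding. The 30 bases around each match are shown 5′ to 3′ along the gene, with the element in capitals, because they are what the called targets and Chac1 share in sequence.
Slc7a11, chr3:50443652-50443681 (minus strand): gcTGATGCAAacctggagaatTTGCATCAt
Asns, chr6:7693214-7693243 (minus strand): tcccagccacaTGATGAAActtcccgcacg
Nupr1, chr7:126625562-126625591 (minus strand): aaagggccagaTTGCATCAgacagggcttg
Chac1, chr2:119351038-119351067 (plus strand): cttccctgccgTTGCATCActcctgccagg
Slc7a11 holds the element 2 times, once in each orientation, while the other windows hold it once. The matches of Asns and Nupr1 lie in bases that GENCODE vM21 annotates as exon, and those of Slc7a11 and Chac1 do not. For context, the 249 bases before the annotated start of Slc7a11, chr3:50443615-50443863 on the minus strand, with both copies in capitals, are as follows.
Slc7a11 promoter: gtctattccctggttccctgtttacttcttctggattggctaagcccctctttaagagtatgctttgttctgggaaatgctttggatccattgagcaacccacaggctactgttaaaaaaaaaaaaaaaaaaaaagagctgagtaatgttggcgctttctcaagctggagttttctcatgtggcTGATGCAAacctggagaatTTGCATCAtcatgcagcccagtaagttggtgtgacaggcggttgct
The letters TTNNGGCA were searched on both strands in the same windows as 1 form of a THAP1 core. They were in 3 of 18 target windows (Shmt2, Gpt2 and Stc2), in 0 of 13 machinery windows and in 10.2% of all windows. None of the 3 genes with these letters was called in either genotype comparison. Other forms of the core were not searched, so these counts do not show which windows hold a THAP1 site.

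**Figure D1:**
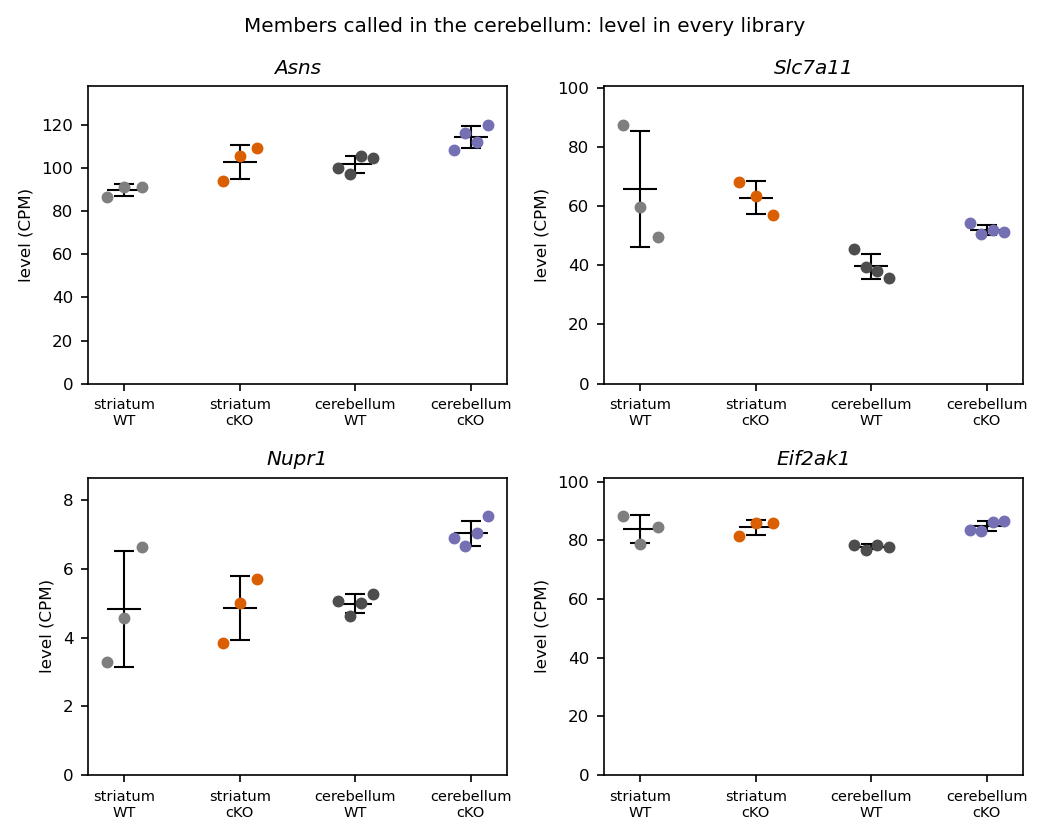
Level in CPM (y axes from 0) of Asns, Slc7a11, Nupr1 and Eif2ak1 in each library of the 4 groups (x axis); points are libraries, the long tick is the mean and the bars are 1 SD. In the cerebellum all 4 cKO points lie above all 4 WT points in each panel, while the striatal WT and cKO points overlap for Slc7a11, Nupr1 and Eif2ak1.

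The other 5 targets that act in transcription or its feedback, Atf4, Ddit3, Atf5, Trib3 and Cebpb, gave no call in the cerebellum. Atf4 had 177.7, 162.3, 192.7 and 174.2 CPM in WT and 165.9, 171.7, 187.6 and 168.7 CPM in cKO libraries, so the groups overlapped throughout. Its log2 fold change was -0.01 (SE 0.0508, 95% interval -0.12 to 0.0960). Ddit3, which encodes CHOP, had 20.8, 20.7, 21.3 and 20.6 CPM in WT and 19.7, 19.2, 21.4 and 21.3 CPM in cKO (-0.02, interval -0.14 to 0.105). The mRNAs of the 2 factors that define the target list were thus measured with narrow intervals around 0, while 3 of their listed targets were called. Atf5, an ATF4 relative under similar translational control, had a log2 fold change of 0.19 (SE 0.0667 and adjusted p = 0.109), and Trib3, a pseudokinase that feeds back on ATF4, 0.40 (SE 0.167, adjusted p = 0.170) at 2.46 ± 0.641 CPM in WT. Cebpb, a bZIP partner of CHOP, had 0.0095 (SE 0.165).

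Among the 8 enzymes of amino acid, serine and one-carbon metabolism only Asns was called in the cerebellum. Aldh1l2, the mitochondrial formyltetrahydrofolate dehydrogenase, came closest of the rest, with 30.6, 28.0, 27.4 and 29.5 CPM in WT and 36.2, 34.7, 32.7 and 29.0 CPM in cKO. The last cKO library, replicate 4, lay inside the WT range. Its fold change was 0.21 in log2 units (SE 0.0653 and adjusted p = 0.0670), and without that library it was 0.27 (adjusted p = 0.0125). Of Aldh1l2's exon bases 1056 also belong to D10Wsu102e on the opposite strand, and whether counting used strand is not given in the sources used here, so its level is uncertain. Mthfd2, the mitochondrial enzyme of folate metabolism, had non-overlapping groups without a call (0.12, SE 0.0602, adjusted p = 0.244), where 5.06% of all genes had every cKO library above every WT library and 9.35% every cKO library below. The serine pathway enzymes stayed within small intervals: Phgdh, its first step, had 0.10 (interval -0.0319 to 0.23), and Psat1, its second step, had -0.07 (interval -0.17 to 0.0352). Shmt2, the mitochondrial serine hydroxymethyltransferase, had 0.03 (interval -0.0663 to 0.13), and Gpt2, mitochondrial alanine transaminase, 0.0054 (interval -0.0925 to 0.10). Cth, which makes cysteine by transsulfuration, had 0.30 with a wide interval from -0.0914 to 0.69 at 2.41 ± 0.751 CPM in WT.

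The partners of Slc7a11 in amino acid import had smaller fold changes. Slc3a2, the heavy chain that both light chains need at the cell surface, had 125.7 ± 7.30 CPM in WT and 133.6 ± 5.47 CPM in cKO cerebellum (log2 fold change 0.10, SE 0.0417, adjusted p = 0.165). Slc7a5, the large neutral amino acid transporter LAT1, had 101.0 ± 6.74 and 111.1 ± 8.13 CPM (0.15, SE 0.0557, adjusted p = 0.128). It was called when WT replicate 4 was left out (0.20, adjusted p = 0.0339), as was Trib3 (0.60, adjusted p = 0.0309), which brought the targets called to 5. Among the redox, growth and secreted effectors, 0 of 4 were called by edgeR, DESeq2 or limma-voom, and 0 had an unadjusted p below 0.05. These were Sesn2 (0.21, adjusted p = 0.223), an inhibitor of mTORC1, Ddit4 (-0.01), which restrains mTORC1 as well, Chac1 (0.13, adjusted p = 0.515), which degrades glutathione, and the secreted Stc2 (0.29, interval -0.24 to 0.83).

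**Figure D2:**
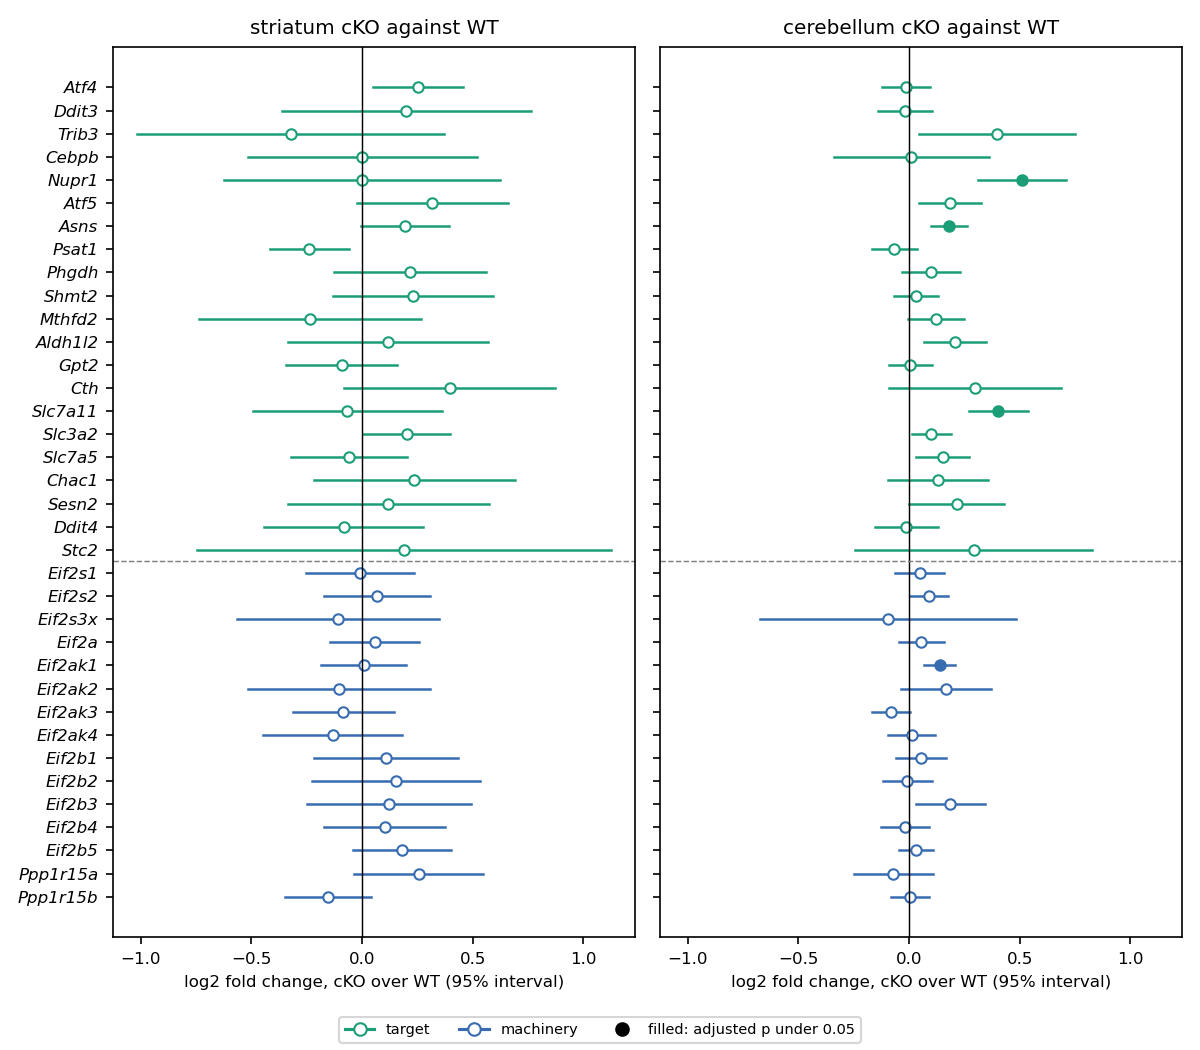
Log2 fold change of cKO over WT with its 95% interval (x axis) for all 36 genes (y axis, ordered by role, targets above the dashed line and machinery below it) in the striatum (left) and cerebellum (right); filled points have an adjusted p below 0.05. The cerebellum has 4 filled points, all to the right of 0, and the striatum has 0.

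Of the machinery, only Eif2ak1, encoding HRI, was called in the cerebellum. The gene lies on chromosome 5 from 143817788 to 143904251 on the plus strand, and 659 of its exon bases are shared with Ankrd61 and Aimp2 on the opposite strand, so some of its reads may be theirs. The WT cerebella had 78.4, 76.8, 78.4 and 77.8 CPM and the cKO cerebella 83.7, 83.1, 86.3 and 86.6 CPM. The groups did not overlap, and the mean rose from 77.9 ± 0.784 to 85.0 ± 1.79 CPM (n = 4 each), by 0.14 on the log2 scale (SE 0.0332 and adjusted p = 0.0161 by the edgeR test). The call was lost in the model of all libraries (adjusted p = 0.241), without cKO replicate 3 (0.0536) and without cKO replicate 4 (0.0561). It was also lost when the trend on gene length of each library's deviation from the gene means was removed (adjusted p = 0.0501 by edgeR).

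The other 3 kinases had no call in the cerebellum, and their fold changes differed in sign. Eif2ak3, encoding PERK, had 55.8, 56.8, 58.5 and 57.5 CPM in WT and 52.1, 52.1, 55.8 and 54.0 CPM in cKO. Of the cKO libraries only the highest reached the lowest WT library, and the difference was -0.08 on the log2 scale (SE 0.0401 and adjusted p = 0.244). Eif2ak2 had 0.17 (interval -0.0356 to 0.37) and Eif2ak4 0.01 (interval -0.0942 to 0.12).

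The eIF2 subunits and eIF2B gave no call either. Eif2s1, the alpha subunit that the kinases phosphorylate, had 44.5, 39.4, 44.2 and 40.1 CPM in WT and 41.7, 44.4, 40.8 and 45.2 CPM in cKO cerebellum, fully mixed (log2 fold change 0.05, interval -0.0632 to 0.16). Eif2s2, the beta subunit, had non-overlapping groups and no call, with the WT libraries at 45.5 ± 0.741 CPM and the cKO libraries at 48.0 ± 1.203 CPM (0.09, SE 0.040, adjusted p = 0.192). Eif2a, which is not an eIF2 subunit but a separate initiator tRNA carrier, had 0.06. Of the 5 eIF2B subunit genes, Eif2b3 had the largest fold change (0.19, SE 0.0736, adjusted p = 0.144), and Eif2b1, Eif2b2, Eif2b4 and Eif2b5 lay between -0.02 and 0.05. The phosphatase subunit gene Ppp1r15a had 19.7, 24.3, 26.8 and 24.9 CPM in WT and 24.0, 22.5, 23.3 and 20.7 CPM in cKO (-0.07, interval -0.25 to 0.11). Ppp1r15b, the gene of the constitutive phosphatase subunit, had 0.0033 (interval -0.0819 to 0.0884). Leaving Eif2s3x aside, the 95% intervals of the machinery genes in the cerebellum ran from -0.25 at the lowest (Ppp1r15a) to 0.37 at the highest (Eif2ak2).

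Eif2s3x, the gamma subunit gene on the X chromosome, varied with sex. Its level was 8.33 to 10.5 CPM in the 4 male and 13.5 to 16.2 CPM in the 4 female cerebella, and 7.78 to 10.7 CPM in the 2 male and 11.7 to 12.9 CPM in the 4 female striata. Its near-identical Y-linked copy Eif2s3y, which is no member of the 36, had 50.4 to 65.5 CPM in male and at most 0.0791 CPM in female cerebella, so in males most reads given to the pair were counted to the Y copy. The sum of the 2 copies also differed with sex. It was 60.5 to 73.8 CPM in male and 13.5 to 16.3 CPM in female cerebella, and 41.6 to 56.2 CPM in male and 11.7 to 12.9 CPM in female striata. How reads that fit both copies were divided is not given in the sources used here, and the Eif2s3x values are uncertain for that reason. The cerebellar genotype interval of -0.67 to 0.48 narrowed to between -0.28 and 0.0764 with sex as a covariate, and neither fit gave a call.

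Some marker genes of other cell classes also differed between genotypes in the cerebellum. The summed level of 8 meningeal fibroblast markers was 788 to 1128 CPM in WT and 1264 to 1578 CPM in cKO libraries, without overlap, and 2 of the 8, Col1a2 (log2 fold change 0.37) and Igf2 (0.73), were called higher by edgeR, 6 by DESeq2 and 4 by limma-voom. Of 10 astrocyte markers 3 were called higher, led by Gfap (0.81), and 2 lower, with sums of 6361 to 6737 CPM in WT and 6298 to 6979 CPM in cKO. Of 12 myelin markers 8 were called lower (sums 5019 to 5547 CPM in WT and 4340 to 4883 CPM in cKO). Of 10 microglia markers 0 were called by edgeR, DESeq2 or limma-voom, with 3 at an unadjusted p below 0.05 (sums 196 to 217 and 211 to 226 CPM). Of 8 cerebellar neuron markers 1, Fat2 (-0.27), was called lower by edgeR and limma-voom and 3 by DESeq2 (Cbln3, Fat2 and Zic1), with 6 at an unadjusted p below 0.05, a median of -0.11 and sums of 6753 to 7645 CPM in WT and 6544 to 7127 CPM in cKO. Of 8 choroid plexus markers 0 were called by any of the 3 tools and 0 had an unadjusted p below 0.05, while all 8 fold changes were positive and the sums ran from 40.5 to 2143 CPM in WT and from 718 to 3471 CPM in cKO. No marker of these 6 lists was at 0 in these groups, and the part of these cells in the higher Asns, Slc7a11, Nupr1 and Eif2ak1 levels was not tested.

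In the striatum 0 of the 36 genes were called by edgeR, and DESeq2 and limma-voom gave 0 as well. Of all 14080 genes tested there, 54 were called, which is 0.384% (0.0639% higher and 0.32% lower), and 7.24% had an unadjusted p below 0.05. Among the 36, 3 had an unadjusted p below 0.05: Atf4, Slc3a2 and Psat1. The median log2 fold change was 0.12 over the targets, 0.0563 over the machinery and 0.0024 over all genes. The median SE over the targets was 0.189, against 0.0622 in the cerebellum. The striatum had fewer libraries, lower totals and a larger spread between replicates (common biological coefficient of variation 0.135 against 0.0722), and their parts in the larger SE were not tested.

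Atf4 had 63.0, 71.0 and 70.5 CPM in the WT and 78.0, 84.9 and 81.4 CPM in the cKO striatum. The groups did not overlap, and the difference was 0.25 on the log2 scale (SE 0.0896, unadjusted p = 0.0200, adjusted p = 0.557). Every cKO library was above every WT library for 7.05% of all genes and below for 7.97%. Among the targets the first held for 5 of 21, namely Atf4, Asns, Chac1, Slc3a2 and Cth, and the second for Psat1. Among the machinery genes it held for Ppp1r15a and Eif2b5, both higher, of 15. Asns had 86.8, 91.6 and 91.2 CPM in WT and 94.3, 105.6 and 109.4 CPM in cKO (0.19, SE 0.0886, adjusted p = 0.707). Psat1 had 188.7, 182.7 and 199.7 CPM in WT and 158.6, 160.7 and 166.0 CPM in cKO (-0.24, SE 0.0795, unadjusted p = 0.0150, adjusted p = 0.506). Psat1 and Atf4 therefore had opposite signs, and neither passed the test.

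The remaining genes given library by library overlapped between the striatal groups, with the exception of Ppp1r15a. Ppp1r15a had 13.8, 15.1 and 16.7 CPM in WT and 17.3, 19.8 and 17.5 CPM in cKO (0.26, SE 0.129, adjusted p = 0.732). Slc7a11 had 87.6, 59.9 and 49.8 CPM in WT and 68.3, 63.4 and 57.1 CPM in cKO (-0.07, SE 0.189). The high WT value came from replicate 1, the library that stood apart, and without it the log2 fold change was 0.20 (adjusted p = 0.671). Nupr1 had 3.28, 4.57 and 6.65 CPM in WT and 3.85, 5.0002 and 5.70 CPM in cKO (-0.0021, interval -0.63 to 0.62). Ddit3 had 11.5, 21.4 and 26.3 CPM in WT and 23.3, 23.7 and 21.2 CPM in cKO (0.20, and -0.06 without WT replicate 1). For Ddit3, too, the lowest value was that of replicate 1. Eif2ak1 had 88.2, 78.9 and 84.4 CPM in WT and 81.6, 85.9 and 85.9 CPM in cKO (0.0074, interval -0.19 to 0.20). Eif2s1 had 36.5, 44.8 and 41.9 CPM in WT and 40.05, 39.2 and 43.3 CPM in cKO (-0.01). Eif2ak3 had 39.1, 34.7 and 34.8 CPM in WT and 32.5, 35.4 and 34.7 CPM in cKO (-0.08). Leaving out replicate 1 left 0 targets and 0 machinery genes called.

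Among the other targets in the striatum, Cth (0.40), Atf5 (0.32), Chac1 (0.24), Shmt2 (0.23), Phgdh (0.22), Stc2 (0.19), Sesn2 (0.12), Aldh1l2 (0.12) and Cebpb (0.0014) had positive log2 fold changes. Trib3 (-0.32), Mthfd2 (-0.24), Gpt2 (-0.09), Ddit4 (-0.08) and Slc7a5 (-0.06) had negative ones, and the smallest adjusted p of these 14 was 0.725, for Atf5. All 5 eIF2B genes had positive fold changes, from 0.10 (Eif2b4) to 0.18 (Eif2b5), none past the test. Myelin markers were lower in the cKO striatum, 5 of 12 called, with summed levels of 8007 to 9793 CPM in WT and 5107 to 6324 CPM in cKO, while 0 of 10 astrocyte, 10 microglia and 8 meningeal markers were called by edgeR (2, 0 and 0 at an unadjusted p below 0.05). DESeq2 and limma-voom called the astrocyte markers Aqp4 and Gfap higher in the cKO striatum, and limma-voom the meningeal marker Igf2. The part of the myelin difference in the striatal values was not tested.

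**Figure D3:**
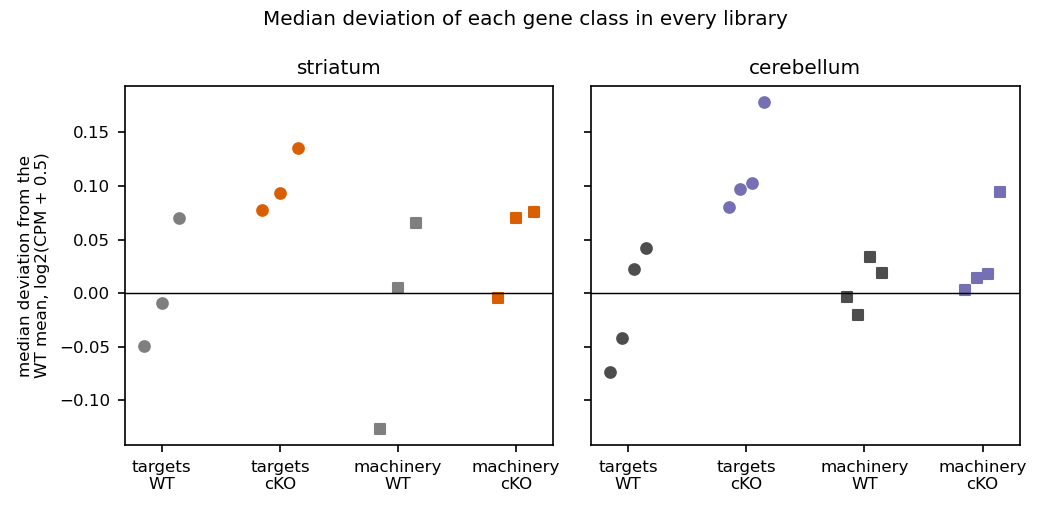
Median over the 21 targets (circles) or the 15 machinery genes (squares) of the deviation from the WT mean of the same tissue, on the log2(CPM + 0.5) scale (y axis), for each library. For the cerebellar targets the WT libraries lie between -0.07 and 0.0419 and the cKO libraries between 0.0800 and 0.18, while for the cerebellar machinery the groups overlap. The striatal groups likewise lie apart for the targets (WT at most 0.0698, cKO at least 0.0772) and overlap for the machinery.

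Seen library by library, the median deviation of the 21 targets from the WT mean was -0.07, -0.04, 0.0228 and 0.0419 in the WT and 0.0800, 0.0970, 0.10 and 0.18 in the cKO cerebella. For the machinery the same measure was -0.0033, -0.02, 0.0333 and 0.0187 in WT and 0.0032, 0.0137, 0.0174 and 0.0946 in cKO. The target medians of the cerebellar cKO libraries were all above those of the WT libraries, and the machinery medians overlapped. In the striatum the target medians were -0.05, -0.0093 and 0.0698 in WT and 0.0772, 0.0931 and 0.14 in cKO, so these groups did not overlap either. The striatal machinery medians again overlapped, with the lowest, -0.13, in WT replicate 1. These medians are a description of the chosen genes. They were not set beside the same measure over all genes and were not tested.

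Whether the genotype difference itself differed between tissues was asked with an interaction term, cerebellar minus striatal log2 fold change, and 0 of the 36 genes were called by edgeR, by DESeq2 or by limma-voom. Of all 15401 genes tested, 0.39% were called (0.24% with a positive and 0.149% with a negative difference) and 11.6% had an unadjusted p below 0.05. Among the 36, 3 had an unadjusted p below 0.05. These were Atf4 (-0.28, SE 0.0959, unadjusted p = 0.0097, adjusted p = 0.256), Ppp1r15a (-0.34, SE 0.151, adjusted p = 0.402) and Slc7a11 (0.45, SE 0.201, adjusted p = 0.406). The Slc7a11 value dropped to 0.20 (adjusted p = 0.568) without WT striatal replicate 1. For Nupr1 the difference was 0.50 with an interval from -0.0461 to 1.04, so a call in the cerebellum alone does not show that Nupr1, Asns (-0.03, interval -0.21 to 0.15) or Eif2ak1 (0.12, interval -0.0343 to 0.26) answered otherwise in the striatum.

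**Figure D4:**
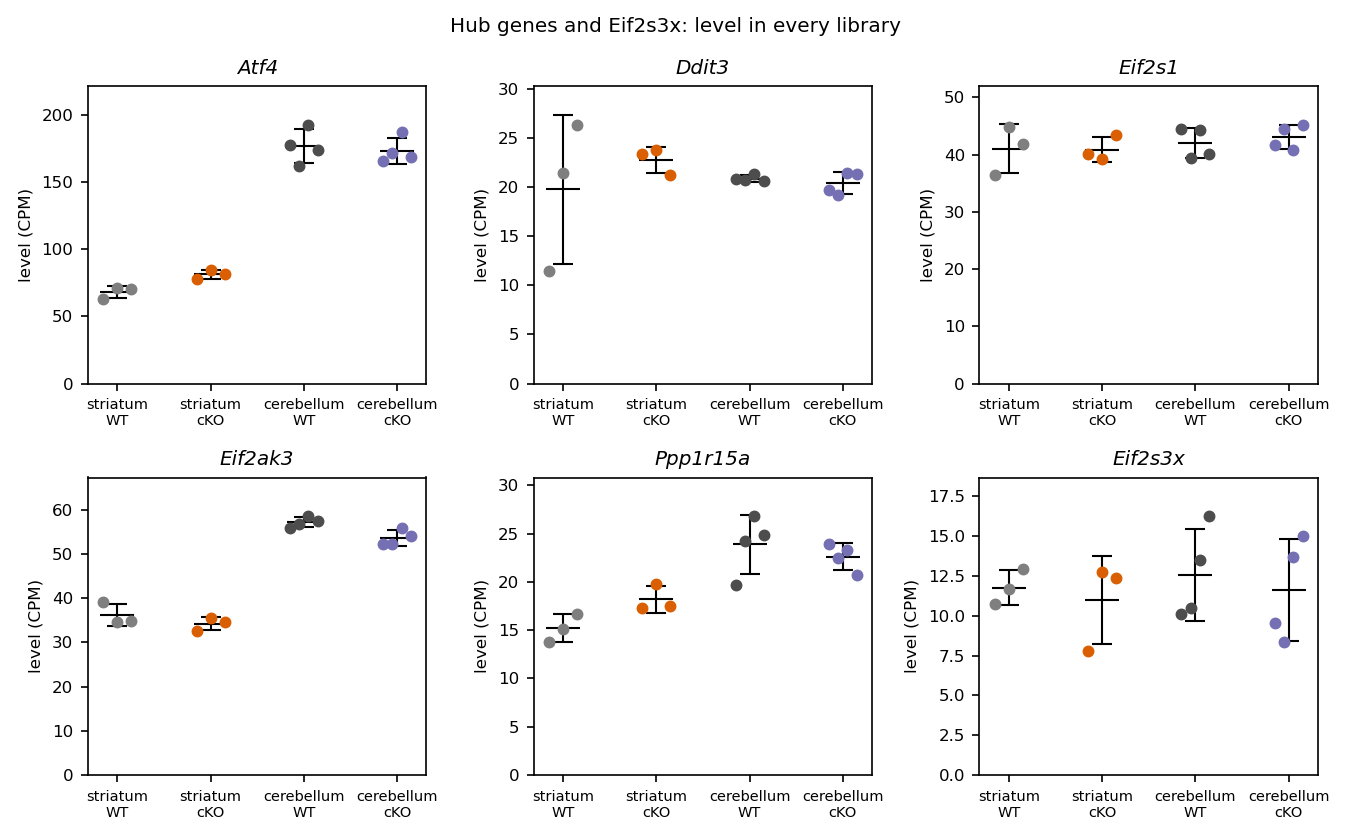
Level in CPM (y axes from 0) of Atf4, Ddit3, Eif2s1, Eif2ak3, Ppp1r15a and Eif2s3x in each library of the 4 groups (x axis); points are libraries, the long tick is the mean and the bars are 1 SD. Atf4 and Eif2ak3 are lower in every striatal than in every cerebellar library, the WT and cKO points of Atf4 overlap in the cerebellum but not in the striatum, and Eif2s3x splits within the cerebellar groups into 2 low male and 2 high female libraries.

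More of the 36 genes were called between the WT tissues than between genotypes in either tissue. Of the 21 targets, 4 were called higher in the striatum and 11 higher in the cerebellum, and of the 15 machinery genes 1 and 6. Over all 15031 genes tested, 64.2% were called, 31.5% higher in the striatum and 32.7% higher in the cerebellum, so the members' shares of 15 of 21 and 7 of 15 have to be read against a background in which most genes differ. The median absolute log2 fold change was 0.72 over the targets, 0.18 over the machinery and 0.51 over all genes. Tissue, library depth and any sequencing run cannot be told apart in this comparison. The labelled tissues bore their neuronal markers: 8 striatal projection neuron genes summed to 7020 to 9486 CPM in the striatal and 235 to 289 CPM in the cerebellar WT libraries, and of 8 cerebellar neuron genes Gabra6, Pcp2 and Fat2 were at 0 in WT striatum.

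The 3 targets with the largest difference towards the striatum were Gpt2, Psat1 and Slc7a11. Gpt2 had 136.1, 105.3 and 115.4 CPM in the striatum of WT mice and 64.3, 60.5, 61.0 and 55.9 CPM in the cerebellum of WT mice (log2 fold change 0.98, SE 0.0970 and adjusted p = 1.32e-05 by the edgeR test). Psat1 had 96.7, 104.0, 110.1 and 106.7 CPM in WT cerebellum, all far below the WT striatal values given above (0.87, SE 0.0676, adjusted p = 2.32e-06). For Slc7a11 the lowest striatal library, at 49.8 CPM, was still above the highest cerebellar one, at 45.7 CPM (0.73, SE 0.180, adjusted p = 0.0057, and 0.46 with adjusted p = 0.00287 without WT striatal replicate 1). Phgdh was also higher in the striatum (0.50, SE 0.123), so the first 2 enzymes of serine synthesis shared that direction. Marker lists differed between the WT tissues as well: 10 of 10 microglia and 11 of 12 myelin markers were called higher in the striatum, and 7 of 8 meningeal, 6 of 8 choroid plexus and 8 of 10 astrocyte markers higher in the cerebellum. The part of these cells in the tissue differences was not tested.

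Higher in the cerebellum, the 3 targets with the largest difference were Aldh1l2, Stc2 and Sesn2. Aldh1l2 had 5.44, 4.26 and 5.54 CPM in WT striatum, against 28.9 ± 1.47 CPM in WT cerebellum (log2 fold change -2.50, SE 0.121, adjusted p = 7.85e-08 by the edgeR test). The 1056 exon bases that Aldh1l2 shares with D10Wsu102e make this difference uncertain too, and the part of D10Wsu102e reads in it was not tested. Stc2 was near the floor of the assay in WT striatum, with 8 to 10 counts per library or 0.864, 0.788 and 0.682 CPM, and had 1.48, 2.11, 3.57 and 3.44 CPM in WT cerebellum (-1.77, SE 0.389, adjusted p = 0.00289). Sesn2 had 8.12, 5.20 and 6.30 CPM in the striatum of WT mice and 17.3, 22.1, 21.01 and 24.2 CPM in the cerebellum (-1.69, SE 0.177, adjusted p = 1.98e-05). None of these 3 had overlapping groups, which was true of 65.8% of all genes (31.3% higher in the striatum and 34.5% higher in the cerebellum).

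Atf4 followed with 68.2 ± 4.51 CPM in the striatum and 176.7 ± 12.5 CPM in the cerebellum of WT mice (-1.37, SE 0.0797, adjusted p = 2.91e-07). Chac1 (-1.34), Shmt2 (-1.26), Mthfd2 (-0.92), Slc7a5 (-0.72), Atf5 (-0.68), Slc3a2 (-0.46) and Asns (-0.18) were called in the same direction. The 2 mitochondrial one-carbon enzymes Shmt2 and Mthfd2 and the dehydrogenase Aldh1l2 were thus higher in the cerebellum, while the serine synthesis enzymes Phgdh and Psat1 were higher in the striatum. Serine synthesis as a whole did not share that direction. Psph, a serine synthesis gene outside the member list, was called higher in the cerebellum (-0.31, SE 0.105, adjusted p = 0.0264 by the edgeR test). The 6 targets without a call were Ddit3, Trib3, Cebpb, Nupr1, Cth and Ddit4. The Asns call was lost without striatal replicate 2 or 3 or cerebellar replicate 3 or 4, each left out alone (adjusted p from 0.0507 to 0.0736).

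In the machinery, the kinase genes Eif2ak3 (-0.66, SE 0.0756, adjusted p = 4.03e-05), Eif2ak2 (-0.54, adjusted p = 0.0155) and Eif2ak4 (-0.28, adjusted p = 0.0337) were higher in the cerebellum, as were Ppp1r15a (-0.65), Eif2s2 (-0.58) and Eif2b4 (-0.47). Eif2ak1 was the exception among the kinases, with 0.11 and no call (interval -0.0355 to 0.26). Ppp1r15b was higher in the striatum by 0.18 (adjusted p = 0.0300), a call that was lost without any one of the 4 cerebellar libraries or striatal replicate 3 (adjusted p from 0.0535 to 0.0870). The Eif2ak2 call was lost without striatal replicate 2 or 3 (0.0517 and 0.0643), and the Eif2ak4 call without striatal replicate 2 or 3 or cerebellar replicate 2, 3 or 4 (0.0555 to 0.13). Eif2s1, Eif2s3x, Eif2a, Eif2b1, Eif2b2, Eif2b3 and Eif2b5 were not called. Leaving out 1 library also added calls that the fit to all WT libraries did not give. Ddit4 and Eif2b2 were called higher in the striatum without striatal replicate 1, Trib3 without striatal replicate 2 and Cth without cerebellar replicate 4. Eif2b3 was called higher in the cerebellum without striatal replicate 3.

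**Figure D5:**
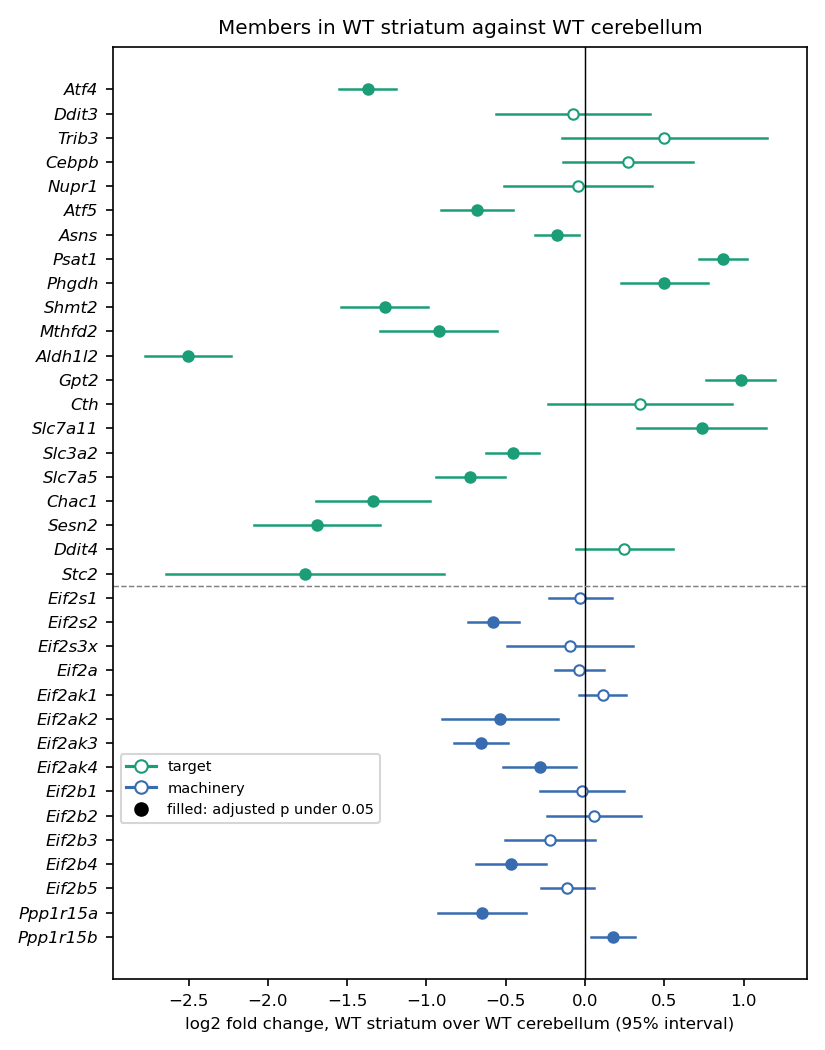
Log2 fold change of WT striatum over WT cerebellum with its 95% interval (x axis) for the 36 genes (y axis, by role, targets above the dashed line, machinery below it); filled points have an adjusted p below 0.05. Targets spread from -2.50 (Aldh1l2) to 0.98 (Gpt2), and machinery genes from -0.66 (Eif2ak3) to 0.18 (Ppp1r15b).

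Compared per kilobase of annotated exon, so that genes can be ranked, Atf4 had the highest level of the targets in WT cerebellum (74.9 CPM per kb), ahead of Asns (37.3), Slc3a2 (35.6), Slc7a5 (27.2), Ddit4 (26.8) and Psat1 (24.5). In WT striatum Psat1 came first (44.8 CPM per kb), followed by Asns (32.9), Ddit4 (31.7), Atf4 (28.9), Slc3a2 (25.9) and Gpt2 (21.1). Stc2 was the lowest target in both tissues, at 0.512 and 0.150 CPM per kb. Eif2b5, the catalytic subunit of eIF2B, headed the machinery in both WT groups (24.8 CPM per kb in the cerebellum and 22.9 in the striatum), with Ppp1r15b second at 17.3 and 19.5. The kinases ranked Eif2ak1 (13.7), Eif2ak3 (9.48), Eif2ak4 (5.25) and Eif2ak2 (2.27 CPM per kb) in WT cerebellum, and in the same order in WT striatum at 14.8, 6.00, 4.30 and 1.56. The length counts every annotated exon base of a gene, whether or not it was transcribed here, and the ranks depend on it. Eif2s2, for example, had 45.5 CPM but 6.74 CPM per kb in WT cerebellum, with a length of 6755 bases against 2595 for Eif2b5.

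Of the other genes around the response, 28 further ATF4 or CHOP targets had a median log2 fold change of 0.0147 in the cerebellum, with 1 called higher and 0 lower by edgeR and limma-voom, and 1 higher and 1 lower (Bbc3) by DESeq2. The gene called higher by all 3 was Slc1a4, a transporter of alanine, serine and cysteine, which rose from 40.5 ± 1.79 to 54.4 ± 1.88 CPM (0.44, SE 0.0454, adjusted p = 1.26e-05). None of 22 further factors around eIF2 and start codon choice was called by edgeR, DESeq2 or limma-voom in the cerebellum, and 2 had an unadjusted p below 0.05. Of 16 unfolded protein response genes edgeR and limma-voom called 1 higher, the chaperone gene Hsp90b1 (0.26, adjusted p = 0.0119 by edgeR), and DESeq2 called Calr as well. Of 20 cytosolic tRNA synthetase genes, several of which are ATF4 targets, 4 were called higher by edgeR and DESeq2, Nars (0.51), Kars (0.24), Lars (0.14) and Aars (0.12), and Vars was called lower (-0.16). Limma-voom gave the same calls without Aars. In the striatum 0 genes of these 4 lists were called by edgeR, with 2 at an unadjusted p below 0.05 in all, while DESeq2 and limma-voom called Nars higher. The interaction gave 0 calls in them by the 3 tools, with 7 at an unadjusted p below 0.05 by edgeR.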

How the data were processed

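Gene counts of 14 libraries were used. The authors deposited raw read counts per gene, 1 table a library. Per the submitters' processing notes, the build was mm10 and the tools included HTSeq 0.6.1p1, cutadapt 1.13, STAR and DESeq2. Neither strand setting nor annotation is given in the sources used here. Of the gene names, 89.8% matched a current GENCODE symbol, 8.23% matched 1 through a RefSeq synonym and 1.95% had no match. Counts were scaled by TMM and filtered with filterByExpr (minimum count 10, minimum total 15) in each fit. Tests were edgeR 4.0.16 robust quasi-likelihood fits (R 4.3.3) with Benjamini-Hochberg adjustment over all genes tested, one fit per comparison and checks on simulated data. SE is the log2 fold change divided by the root of F. Levels are CPM with TMM factors over all 14 libraries, and levels between genes are per kb of GENCODE vM21 exon. Values in every library are given for genes called between genotypes, 5 hub genes fixed by name and the 3 genes with the largest called difference towards each WT tissue; Aldh1l2 and Eif2s3x were added after their values were seen. The 36 genes and all lists were chosen with earlier results of these data known. DESeq2 1.42.0, limma-voom (limma 3.58.1), other scaling, no filter, sex, a replicate block, a joint model, a length trend and leaving out each library were the alternatives.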

Additional observations from a re-analysis of the deposited data

Results flagged for a closer look

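In 2 of the 72 groups of 4 cerebellar libraries examined (36 genes in WT and in cKO), 1 library lay far from the other 3; chance alone marks about 1 group in 20. Slc7a5, the large neutral amino acid transporter, had 123.2 CPM in cKO replicate 4, the highest of its group, with the next library at 108.3 CPM and the lowest at 105.7 CPM. Gpt2, mitochondrial alanine transaminase, had 57.0 CPM in cKO replicate 1, the lowest of its group, with the next library at 60.7 CPM and the highest at 61.4 CPM.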

How the results depend on the processing

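Over all alternatives and the 36 genes, 2264 single-gene values stayed on the same side of the threshold, 28 lost a call, 12 gained one, and none of the called values changed sign. Of the 2264, 143 were uncalled values whose sign differed. The cerebellar calls are the most dependent on the model: with all samples in 1 model, 0 targets and 0 machinery genes were called (Asns adjusted p = 0.171, Slc7a11 0.204, Nupr1 0.142, Eif2ak1 0.241), and 251 genes in all; the cause was not tested. With the length trend removed 0 machinery genes were called there. Leaving out 1 library gave 3 to 5 cerebellar targets, 0 to 1 machinery genes and 739 to 1165 genes called, and target medians of 0.11 to 0.20. In the striatum the genes called numbered 153 with DESeq2, 178 with limma-voom, 376 with 1 model, 86 with the length trend removed and 3 to 122 with 1 library left out (122 without WT replicate 1). The striatal target median was 0.0746 with the length trend removed, 0.15 with Ppp1r15a counted as a target and 0.0517 to 0.18 with 1 library left out; that of the machinery was 0.0107 with limma-voom and 0.0015 to 0.0869 with 1 library left out, the lowest without WT replicate 1. For the interaction, 228 genes were called with DESeq2 and 17 to 193 with 1 library left out, the target median was -0.0059 with limma-voom and -0.0042 to 0.0649 with 1 library left out, and the machinery median -0.0438 to 0.0668. With sex as a covariate Aldh1l2 was called in the cerebellum (adjusted p = 0.0377).

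Replicate numbers gave no pairing that held for all samples. Same-numbered deviations correlated at 0.0544 to 0.12 in the striatum, 0.0598 to 0.33 in the cerebellum and -0.12 to 0.20 between the WT tissues. Striatal replicates 1 and 2 and WT replicate 1 between the tissues matched their own number best, and the others did not do so in both directions. The labels do not say whether the 2 tissues came from the same mice. With the replicate block, 5 cerebellar targets were called, adding Aldh1l2 (adjusted p = 0.0492) and Slc7a5 (0.0156), 4 machinery genes between WT tissues, 15 genes in the striatum and, with the block within tissue, 13 in the interaction.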
